A study of Homo sapiens with 8 samples.

Results

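RAB GTPases are the largest branch of the RAS superfamily of small GTP-binding proteins. The genes described here are the protein-coding rows of an RNA sequencing table whose symbol is RAB followed by a number and at most 1 letter. 56 of the 16525 listed genes met this rule, all of them among the 13401 protein-coding genes. Values came from EndoC-βH5 cells, a human beta-cell line of fetal pancreas origin that no longer carries its immortalizing transgenes, SV40LT and hTERT. There were 4 libraries of untreated control cells and 4 of cells treated with recombinant human IL-1β, IFNγ and TNFα, all harvested at 48 h. Both conditions are of this single commercial line, without the other cell types of an islet, and cells were seeded in duplicate wells. The labels number the replicates but do not say that they were separate thawings or passages, so p-values measure the spread between these libraries, which may be technical.

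RAB proteins switch between a GDP-bound form held in the cytosol and a GTP-bound form on a membrane, and each marks certain compartments. Exchange factors (GEFs) load GTP, GTPase-activating proteins (GAPs) end the active state, and effectors bound by the GTP form tether, move or dock vesicles. In beta cells, RAB3 and RAB27 proteins on the insulin granule recruit the effectors that dock it at the plasma membrane, while other RABs direct ER-to-Golgi transport, endosomes and lysosomes.

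Units are CPM, the reads on a gene scaled to a common library total. Each CPM value was a whole number of reads, and 1 read equalled 0.0196 to 0.0214 CPM. Reads on the listed genes ranged from 36577438 to 40117636 per library, and the RAB genes had between 10 and 23012 reads in a library. Columns are not numbered by replicate. Their names start alike for 1 control and 1 cytokine library at a time, which gives the 4 pairs A, B, C and D. The middle part of the name is 21 for A and B and 22 for C and D, which the labels do not explain. Differences are log2 fold changes of cytokine minus control on log2(CPM + 0.1), tested with limma, and a gene was called when the log2 fold change exceeded 0.5 in size with an FDR (adjusted p) below 0.05 over all 16525 genes. All 13 beta-cell markers examined were among the rows, with a summed level of 25194 to 38553 CPM in control and 30106 to 54747 CPM in cytokine libraries. None of 5 leukocyte markers was among the rows, and the exocrine and the fibroblast and endothelial lists had 2 of 6 and 1 of 5. In bulk RNA, fewer cells that express a gene and less of its RNA per cell cannot be told apart.

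Cytokines were accompanied by higher RNA of 6 RAB genes and lower RNA of 5. RAB30, RAB31, RAB27A, RAB19, RAB24 and RAB2B were higher, and RAB37, RAB26, RAB3D, RAB23 and RAB25 were lower. RAB30 had the largest rise, 1.60 on the log2 scale, and RAB37 the largest fall (-1.85). RAB31 had the same value as RAB30, but among these 8 libraries it exceeded the limit for being listed (0.5 CPM) only in cytokine libraries. Such listing favors a higher cytokine value, so its value is given without a test, and 5 genes were higher without it. These 11 calls are 19.6% of the RAB genes, beside 27.0% of all genes (9.52% called higher and 17.5% called lower). The median log2 fold change of the 56 genes was 0.03, beside -0.17 over all genes. With TMM scaling, which brought the median of all genes to -0.01, the RAB median was 0.19, a shift of 0.15 for all genes. On the CPM scale 29 of the 56 values were above 0, and with TMM 42 were. The split of calls was then 9 higher and 4 lower (13.1% and 11.6% of all genes). With the pairs as a replicate block, limma called 8 higher and 5 lower (11.6% and 23.8% of all genes, 35.4% in either direction), and edgeR with TMM called 10 higher and 4 lower (15.9% and 16.1%).

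**Figure D1:**
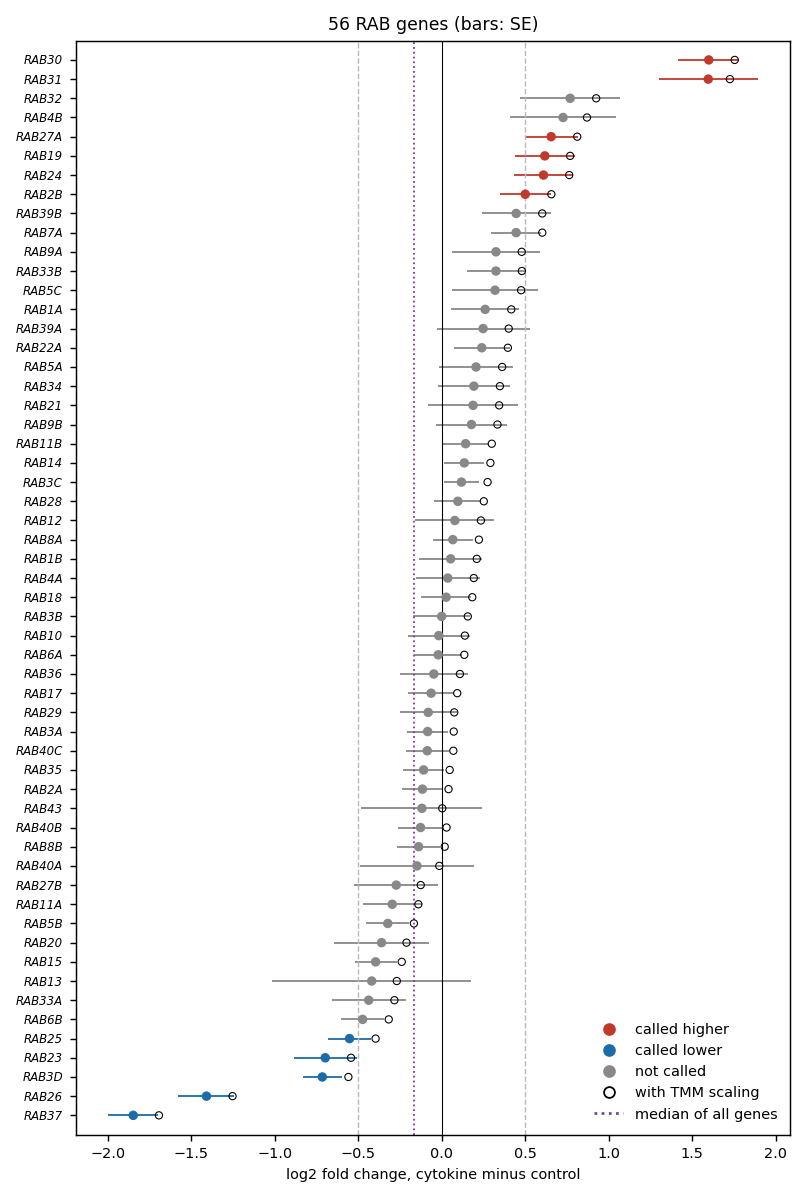
Log2 fold changes of the 56 RAB genes, ordered from the highest to the lowest (x axis, cytokine minus control on log2(CPM + 0.1), filled points with SE bars, n = 4 libraries per condition), with the TMM-scaled value as an open circle. The 6 genes called higher (red) end at 1.60 and the 5 called lower (blue) at -1.85. The open circles lie to the right of the filled points, and the dotted line is the median of all genes (-0.17).

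The 2 conditions had separate ranges for 6 RAB genes that were higher and 7 that were lower, beside 32.8% of all genes. Of the called genes, only RAB2B overlapped between conditions. RAB7A (0.45), RAB6B (-0.47) and RAB15 (-0.40) did not overlap but missed the fold threshold. RAB31, which has no test, is among the 6 higher genes. The 2-sided exact permutation test of a single gene cannot go below 0.0286 with 4 against 4 libraries. Separate ranges give that p by themselves, so it adds nothing for the non-overlapping genes. Within the 4 pairs, 21 RAB genes were higher and 12 lower in every pair, beside 22.2% and 43.6% of all genes (65.8% with 1 sign). All 11 called genes, RAB31 without a test included, kept their sign in the 4 pairs. Separate ranges fix that sign, so among the called genes only RAB2B could have failed. A test of whether the cytokine difference itself differed between A and B and C and D called none of the 56 in limma (lowest adjusted p = 0.999, beside 0.0303% of all genes called), and 2 had an unadjusted p below 0.05 (2.95% of all genes).

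Promoter windows, the 250 bases before a transcript start in RefSeq (GRCh38.p14), were held for 45 of the 56 genes, with 65 starts. They were searched on both strands for a GAS element (TTCNNNGAA), an ISRE core (GAAA, any 2 bases and GAAA again, bound by IRF factors), the E-box CACGTG and the CRE TGACGTCA. A GAS match was found in 2 of the 65 windows (RAB30 and RAB1B) beside 6.57% of 35116 windows of all genes, and an ISRE core match in 1 (RAB27A) beside 3.02%. An E-box was found in 5 (RAB21, RAB24, RAB31, RAB4A and RAB5A) beside 6.34%, and a CRE in 1 (RAB25) beside 1.65%. Windows of 3 called genes are shown because each holds the only match of its motif among the called genes, with the match in capitals. They are RAB30 at chr11:83071898-83072147 on the minus strand, RAB27A at chr15:55319124-55319373 on the minus strand, the most upstream of its 5 starts, and RAB25 at chr1:156060910-156061159 on the plus strand. The capitals in RAB27A are the ISRE core on the opposite strand. A match describes the letters of a window and is not evidence of binding.
RAB30: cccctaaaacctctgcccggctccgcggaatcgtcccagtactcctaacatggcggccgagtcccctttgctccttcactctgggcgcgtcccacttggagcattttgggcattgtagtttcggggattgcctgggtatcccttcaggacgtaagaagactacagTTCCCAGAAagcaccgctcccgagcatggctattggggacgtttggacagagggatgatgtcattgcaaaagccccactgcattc
RAB27A: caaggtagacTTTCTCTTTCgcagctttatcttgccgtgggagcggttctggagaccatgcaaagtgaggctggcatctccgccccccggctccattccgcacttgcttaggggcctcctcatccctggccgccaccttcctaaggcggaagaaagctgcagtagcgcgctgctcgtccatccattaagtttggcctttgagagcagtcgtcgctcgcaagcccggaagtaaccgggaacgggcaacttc
RAB25: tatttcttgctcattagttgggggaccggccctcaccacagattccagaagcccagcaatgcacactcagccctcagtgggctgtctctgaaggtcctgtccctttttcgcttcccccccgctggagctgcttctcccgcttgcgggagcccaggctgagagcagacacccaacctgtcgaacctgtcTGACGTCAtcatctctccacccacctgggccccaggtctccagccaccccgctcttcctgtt

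Among the 8 RABs of secretory granules, 3 fell, 1 rose and 4 did not pass the test. Of all genes, 27.0% were called (9.52% higher and 17.5% lower). RAB37, RAB26 and RAB3D were the members that fell, and RAB27A was the one that rose. The median of the 8 was -0.18, near that of all genes (-0.17). RAB37 (ENSG00000172794, chr17:74670578-74747335, plus strand) is a granule RAB of secretory cells. Its level was 11.9, 12.4, 14.9 and 12.2 CPM in control libraries A to D and 3.58, 3.31, 3.18 and 3.90 CPM in cytokine libraries A to D. Each cytokine library was far below each control library, and control C was the highest of all. The mean was 12.8 ± 1.36 CPM in control and 3.49 ± 0.317 CPM in cytokine libraries (n = 4, SD). On the log2 scale RAB37 changed by -1.85 (SE 0.15, limma adjusted p = 7.13e-06), or 3.60-fold lower. Within A and B it was -1.79, and within C and D -1.90.

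RAB26 (ENSG00000167964, chr16:2140803-2154165, plus strand) acts on secretory granules and synaptic vesicles. It stood at 44.6, 45.7, 70.3 and 62.7 CPM in control libraries A to D and at 20.1, 18.9, 19.3 and 24.3 CPM in cytokine libraries A to D. The control libraries of C and D were higher than those of A and B, while the cytokine libraries lay close together. RAB26 fell with a log2 fold change of -1.41 (SE 0.17, limma adjusted p = 0.000124), with -1.21 within A and B and -1.61 within C and D. RAB3D (ENSG00000105514, chr19:11322046-11346270, minus strand), known from zymogen granules of exocrine cells, had 56.8, 48.7, 56.6 and 45.3 CPM in control and 31.4, 31.9, 33.5 and 28.9 CPM in cytokine libraries. The lowest control library was above the highest cytokine library. RAB3D fell with a log2 fold change of -0.72 (SE 0.12, limma adjusted p = 0.0011) and hardly varied between A and B (-0.73) and C and D (-0.70).

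RAB27A (ENSG00000069974, chr15:55202966-55319113, minus strand), which docks insulin granules through synaptotagmin-like effectors, moved the other way. Control libraries A to D had 20.4, 17.0, 27.8 and 24.9 CPM and cytokine libraries A to D 32.2, 33.6, 38.5 and 35.7 CPM. All 4 cytokine libraries were above all 4 control libraries. The mean was 22.5 ± 4.80 CPM in control and 35.0 ± 2.74 CPM in cytokine libraries (n = 4, SD). RAB27A rose by 0.66 on the log2 scale (SE 0.16, limma adjusted p = 0.0102), or 1.58-fold. It was 0.82 within A and B and 0.49 within C and D.

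The other RAB3 genes and RAB27B did not pass the test. RAB3B had the highest CPM of the granule RABs, at 286, 323, 458 and 384 CPM in control and 313, 324, 424 and 377 CPM in cytokine libraries A to D. The cytokine range lay within the control range, and the 95% interval of the log2 fold change ran from -0.37 to 0.37. RAB3A, the RAB3 form best known from regulated exocytosis, had 41.6, 35.2, 41.5 and 33.3 CPM in control and 34.6, 37.4, 38.1 and 32.5 CPM in cytokine libraries. Its log2 fold change was -0.08 (95% interval -0.35 to 0.18), which turned to 0.07 with TMM, and the value of RAB3B, just below 0 on the CPM scale, turned to 0.16. RAB3C had 52.8, 58.5, 64.3 and 57.5 CPM in control and 62.2, 63.5, 61.3 and 65.5 CPM in cytokine libraries, a log2 fold change of 0.12 (95% interval -0.11 to 0.35). Here the control library of C was the second highest of the 8. RAB27B, the close relative of RAB27A, was low, with 1.52, 1.69, 1.59 and 1.70 CPM in control and 1.75, 1.56, 0.825 and 1.37 CPM in cytokine libraries. Its log2 fold change of -0.27 had a 95% interval of -0.83 to 0.28, so a change of the size of that of RAB3D was within the interval.

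**Figure D2:**
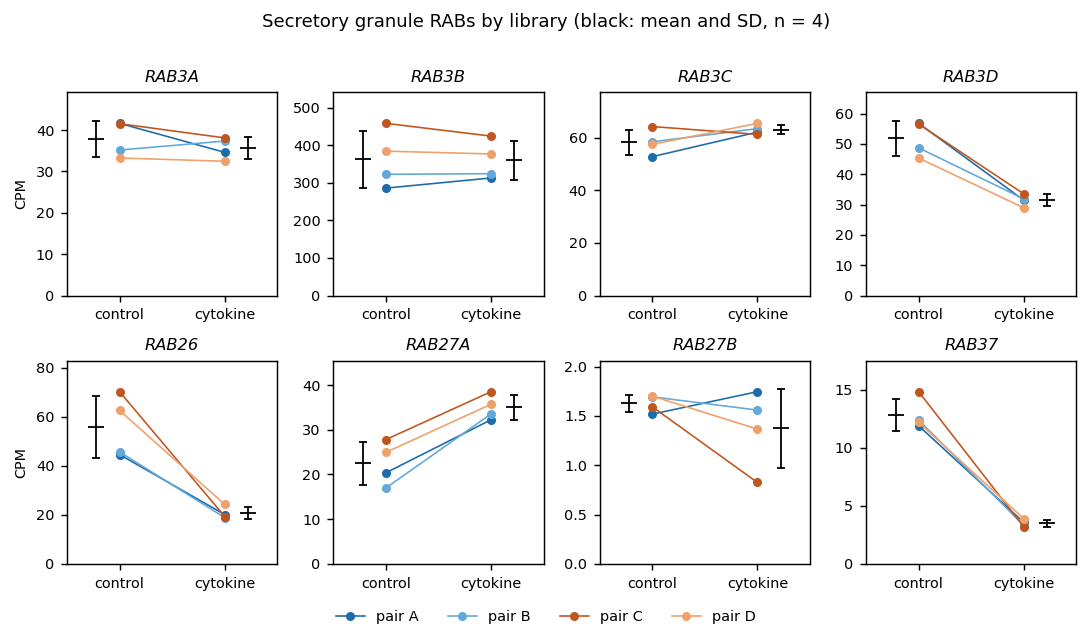
CPM (y axis, from 0) of the 8 secretory granule RABs in the 4 control and 4 cytokine libraries, with lines joining the columns of pairs A to D and black marks for the mean and SD (n = 4). RAB37, RAB26 and RAB3D were lower in every cytokine library, RAB27A was higher in every one, and the lines of RAB3A, RAB3B, RAB3C and RAB27B cross or run level.

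Of 16 ER and Golgi RABs, 3 rose and 13 were not called (27.0% of all genes were called), and the median was 0.12. The 3 were RAB30, RAB19 and RAB2B. RAB30 (ENSG00000137502, chr11:82973133-83071923, minus strand), a Golgi RAB, had 5.67, 6.60, 10.3 and 8.11 CPM in control libraries A to D and 21.3, 21.8, 25.1 and 23.5 CPM in cytokine libraries A to D. The lowest cytokine library was above the highest control library. The mean was 7.67 ± 2.03 CPM in control and 22.9 ± 1.72 CPM in cytokine libraries (n = 4, SD). RAB30 rose by 1.60 on the log2 scale (SE 0.18, limma adjusted p = 9.66e-05), or 3.03-fold. It was 1.80 within A and B and 1.40 within C and D.

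RAB19 (ENSG00000146955, chr7:140404043-140426250, plus strand), also a Golgi RAB, had 3.19, 2.86, 2.51 and 2.42 CPM in control and 4.88, 3.99, 4.41 and 3.76 CPM in cytokine libraries A to D. The conditions did not overlap, although every library had a low level. It rose with a log2 fold change of 0.62 (SE 0.18, limma adjusted p = 0.0236), and it was 0.56 (adjusted p = 0.0653) without control D and 0.55 (adjusted p = 0.0776) without cytokine library A. RAB2B (ENSG00000129472, chr14:21459020-21476973, minus strand), which works between the ER and the Golgi, had 32.3, 26.8, 24.2 and 20.9 CPM in control and 40.9, 39.6, 33.9 and 32.03 CPM in cytokine libraries. Control A lay above cytokine library D, but within each pair the cytokine library was higher. RAB2B rose by 0.50 on the log2 scale (SE 0.15, limma adjusted p = 0.029). It lost the call without control B (0.52, adjusted p = 0.055), C (0.47) or D (0.40) and without cytokine library A (0.44) or B (0.46).

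The 13 other ER and Golgi RABs had log2 fold changes from -0.47 to 0.45. RAB6B, the form of RAB6 found mainly in neurons, had 48.6, 48.7, 62.9 and 49.3 CPM in control and 36.7, 36.9, 42.7 and 34.0 CPM in cytokine libraries. The conditions did not overlap. Its log2 fold change of -0.47 (SE 0.13, limma adjusted p = 0.0165) was under the fold threshold, and passed it without control A (-0.51), B (-0.51) or D (-0.50) or cytokine library C (-0.54). RAB39B, mutated in X-linked intellectual disability, had 16.1, 17.6, 28.6 and 20.7 CPM in control and 23.2, 23.8, 37.2 and 28.4 CPM in cytokine libraries. Every pair was higher with cytokines, yet the libraries overlapped. The log2 fold change of 0.45 had an adjusted p of 0.125 in limma, and with edgeR and TMM it was 0.61 (adjusted p = 0.0288). Without control C it was 0.61 (limma adjusted p = 0.0311). RAB43 shares 78.8% of its 100-base stretches with other genes, among them a readthrough transcript with ISY1, so its value is uncertain.

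Of 9 early endosome RABs, 2 rose (RAB31 and RAB24) and 7 were not called, beside 27.0% of all genes called. The median of the 9 was 0.21. RAB31 (ENSG00000168461, chr18:9708165-9862551, plus strand), which acts between the trans-Golgi network and endosomes, had the lowest level of all RAB genes per length. It had 0.214, 0.360, 0.299 and 0.293 CPM in control libraries A to D and 0.852, 0.897, 1.77 and 0.964 CPM in cytokine libraries A to D. These are 10 to 17 reads in control and 40 to 88 reads in cytokine libraries. Every cytokine library was higher, with library C far above the others. The difference was 1.60 on the log2 scale (SE 0.30), and on the recovered reads edgeR gave 2.09. The log2(CPM + 0.1) scale understates the change of a gene this low. RAB31 was above 0.5 CPM in cytokine but in no control library, so among these 8 libraries it was listed only through the condition in which it was higher and the difference has no test. Every other called RAB gene was above 0.5 CPM in all 8 libraries.

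RAB24 (ENSG00000169228, chr5:177301198-177303744, minus strand), linked to autophagy, had 5.15, 4.38, 5.63 and 5.20 CPM in control and 6.60, 6.73, 9.48 and 8.74 CPM in cytokine libraries. The conditions did not overlap, and the cytokine libraries of C and D were above those of A and B. RAB24 rose by 0.61 on the log2 scale (SE 0.18, limma adjusted p = 0.0226), with 0.48 within A and B and 0.74 within C and D. It lost the call without control B (0.54, adjusted p = 0.066), cytokine library C (0.52, adjusted p = 0.057) or cytokine library D (0.55, adjusted p = 0.0647). Of its 100-base stretches 32.1% also occur in MXD3 on the same strand, so its value is uncertain. The 7 other early endosome RABs, RAB5A, RAB5B and RAB5C among them, had log2 fold changes between -0.36 and 0.32.

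Among 13 RABs of recycling endosomes and the plasma membrane, RAB25 fell and 12 were not called, beside 27.0% of all genes called. The median of the 13 was -0.02. RAB25 (ENSG00000132698, chr1:156061160-156070514, plus strand) is the epithelial member of the RAB11 group. It had 33.6, 41.0, 47.5 and 37.5 CPM in control libraries A to D and 28.3, 27.2, 26.4 and 26.0 CPM in cytokine libraries A to D. All cytokine libraries were below all control libraries, and pair A differed least. It fell with a log2 fold change of -0.55 (SE 0.13, limma adjusted p = 0.00777), but -0.46 without control C and -0.40 with TMM, both under the fold threshold. Its relatives RAB11A (-0.30) and RAB11B (0.14) were not called.

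RAB15, an endosomal RAB of neuronal cells, had 288, 278, 264 and 229.8 CPM in control and 212, 225, 188 and 179.7 CPM in cytokine libraries. The lowest control library lay just above the highest cytokine library. Its log2 fold change was -0.40 (SE 0.13, limma adjusted p = 0.0339), and -0.24 with TMM (adjusted p = 0.238). RAB4B, of the rapid recycling route, had 1.07, 1.101, 0.597 and 1.56 CPM in control and 1.87, 2.18, 1.11 and 2.15 CPM in cytokine libraries. Each pair was higher with cytokines, but the libraries overlapped. Its log2 fold change of 0.73 had an adjusted p of 0.106 in limma and of 0.00701 with the pairs as a replicate block. Without cytokine library C it was 0.94 (adjusted p = 0.0459). RAB4B shares 32.6% of its 100-base stretches with readthrough transcripts, and its value is uncertain for that reason.

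None of the 5 RABs of late endosomes and lysosome-related organelles was called by limma, beside 27.0% of all genes. Unadjusted, 2 of the 5 had a limma p below 0.05, near the share of all genes (6945 of 16525). EdgeR with TMM and DESeq2 called 2 each (24.5% and 27.2% of all genes). The median of the 5 was 0.32. RAB7A, the RAB of late endosome to lysosome transport, had 204, 207, 241 and 189 CPM in control and 276, 263, 369 and 247 CPM in cytokine libraries. All cytokine libraries were above all control libraries. The log2 fold change was 0.45 (SE 0.15, limma adjusted p = 0.0413), under the fold threshold on the CPM scale and over it with TMM (0.60, adjusted p = 0.0105). It was also over it without control C (0.51) or cytokine library D (0.51).

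RAB32 (ENSG00000118508, chr6:146543693-146554965, plus strand), which serves lysosome-related organelles, had 8.55, 10.99, 22.9 and 17.3 CPM in control and 19.2, 18.9, 34.6 and 25.3 CPM in cytokine libraries. The libraries of C and D were higher than those of A and B in control, so the conditions overlapped, while each pair was higher with cytokines. The log2 fold change of 0.77 (SE 0.30) had an adjusted p of 0.0757 in limma, and of 2.44e-05 with the pairs as a replicate block. Without control C it was 1.01 (adjusted p = 0.0206), and with edgeR and TMM 0.90 (adjusted p = 0.0319).

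Of 5 remaining RABs, with roles at the cilium or of other kinds, only RAB23 was called (27.0% of all genes were), and it fell. RAB23 (ENSG00000112210, chr6:57186992-57222314, minus strand) restrains Hedgehog signaling. It had 6.31, 8.30, 9.97 and 10.2 CPM in control and 4.62, 5.19, 5.07 and 6.15 CPM in cytokine libraries A to D. Control A was only just above cytokine library D. It fell with a log2 fold change of -0.70 (SE 0.19, limma adjusted p = 0.0168), and -0.61 without control D (adjusted p = 0.0535) or -0.64 without cytokine library A (adjusted p = 0.0516). In GENCODE 2842 of its 4926 exon bases are also exons of BAG2 on the opposite strand. RAB28 and the 3 RAB40 genes had log2 fold changes from -0.15 to 0.10. RAB38, RAB41, RAB42, RAB44, RAB6C, RAB6D and RAB7B were not analysed here.

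**Figure D3:**
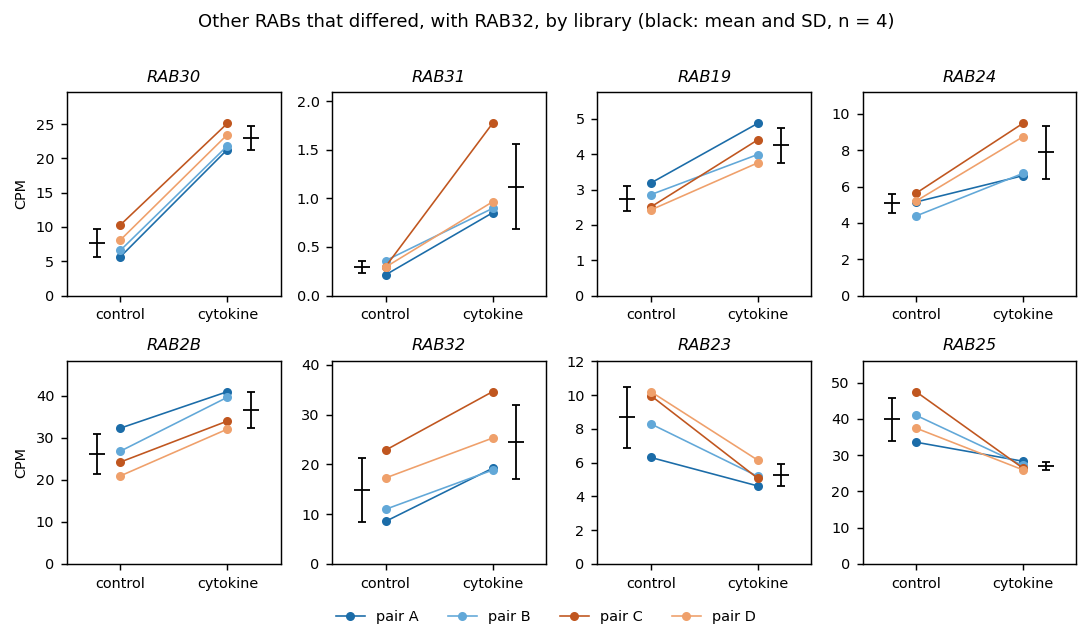
CPM (y axis, from 0) in the 4 control and 4 cytokine libraries of RAB30, RAB31, RAB19, RAB24, RAB2B, RAB23 and RAB25, which were called, and of RAB32, which was called under some alternatives only, with lines joining pairs A to D and black marks for the mean and SD (n = 4). RAB30 rose by 1.60, RAB31 has the same difference but was listed through its cytokine libraries, and in RAB2B and RAB32 all lines rise although the conditions overlap.

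Levels were compared between genes per exon length, as TPM, read numbers divided by exon length and scaled to a common total. In control cells RAB1B, which acts in ER-to-Golgi transport, was the highest at 459 ± 42.8 TPM (SD, n = 4). RAB11B, of recycling endosomes, followed at 344 ± 40.6 TPM and RAB7A at 297 ± 57.4 TPM. The SD ranges of RAB11B and RAB7A overlapped. In CPM, RAB1B had 294, 279, 226 and 183 in control and 286, 291, 252 and 187 in cytokine libraries A to D, with a log2 fold change of 0.05 (95% interval -0.36 to 0.47). Its level followed the pair and not the condition. RAB11B had 245, 228, 235 and 186 CPM in control and 256, 269, 260.4 and 202 CPM in cytokine libraries, a log2 fold change of 0.14 (95% interval -0.16 to 0.45). The pairs again differed more than the conditions.

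The granule RABs spread over the whole range per length. In control cells RAB3B stood at 110.4 ± 36.5 TPM, RAB26 at 88.1 ± 31.3 TPM, RAB3A at 79.8 ± 13.1 TPM and RAB3D at 44.9 ± 7.12 TPM (SD, n = 4). RAB27A was lower, at 15.7 ± 5.32 TPM, as was RAB37 at 9.76 ± 2.11 TPM, and RAB27B was near the bottom at 0.84 ± 0.14 TPM. With cytokines RAB27A had 26.1 ± 4.84 TPM, RAB26 34.7 ± 7.73 TPM and RAB37 2.87 ± 0.51 TPM. RAB30 had 2.55 ± 0.97 TPM in control and 8.09 ± 1.49 TPM in cytokine libraries, still among the lower RAB genes. The sum over the 56 genes was 2621 to 3794 TPM in control and 2986 to 4015 TPM in cytokine libraries, and it was higher in C and D than in A and B in both conditions.

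Irrespective of cytokines, 20 of the 56 genes had no overlap between the 4 libraries of A and B and the 4 of C and D (20.2% of all genes). Of these, 14 were higher in C and D and 6 in A and B. RAB21, an endosomal RAB, ranged from 21.2 to 28.4 CPM in A and B and from 37.9 to 49.4 CPM in C and D. RAB36 went the other way, with 38.5 to 44.4 CPM in A and B and 26.2 to 28.8 CPM in C and D. A gene with separate control and cytokine ranges cannot be among the 20. Of the 11 called genes only RAB2B could therefore have been among them, and it was not. RAB1B and RAB3B were among the 20.

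**Figure D4:**
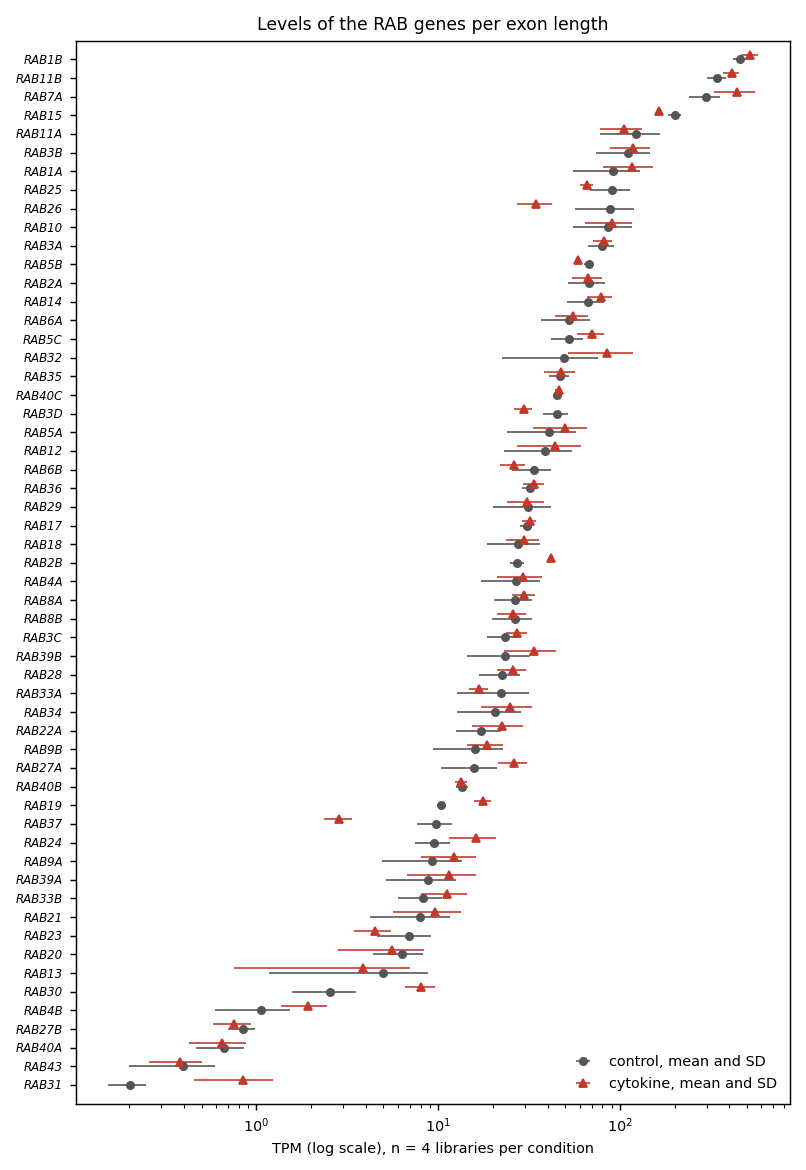
Mean TPM with SD (x axis, log scale, n = 4 libraries per condition) of the 56 RAB genes in control (circles) and cytokine libraries (triangles), ordered by the control mean. RAB1B, RAB11B and RAB7A are at the top and RAB31 is at the bottom, and the triangles of RAB37 and RAB26 lie to the left of their circles.

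The genes that act on or with RABs were taken from 5 lists with 120 measured genes. Of these, 11 rose and 16 fell (22.5%, beside 27.0% of all genes), with a median log2 fold change of -0.03. The 16 include RPH3A and RABGEF1, each above 0.5 CPM in all 4 control but not in all cytokine libraries. With TMM the split was 22 higher and 8 lower (13.1% and 11.6% of all genes). With edgeR, TMM and the pairs as a replicate block 25 were higher (15.9% of all genes). Of 36 GEFs, 2 rose and 5 fell, with a median of 0.02. DENND4A, an exchange factor for RAB10, rose by 1.24 (SE 0.13, limma adjusted p = 4.56e-05). Its level was 30.0 to 41.2 CPM in control and 77.2 to 90.7 CPM in cytokine libraries. The RAB5 exchange factor RIN2 (-0.82) fell. RABGEF1, also of RAB5, is among the 5 with a difference of -0.85, and it had at most 1.49 CPM. It did not keep its call with edgeR and TMM or without control B, C or D or cytokine library A or B (-0.87 to -0.71). RABGEF1 was above 0.5 CPM in all 4 control but only 2 cytokine libraries. It was thus listed through the controls, where it was higher, and its call is no support. DENND3 (0.55) rose, and ALS2CL (-0.73), MON1A (-0.73), which helps to load RAB7, and DENND2A (-0.67) fell. DENND5B was at 0.52 with an adjusted p of 0.0777 in limma and of 0.000785 with the pairs as a replicate block.

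Of 36 GAPs, 6 rose and 4 fell (27.8%, beside 27.0% of all genes), with a median of -0.11. The rises were TBC1D9 (1.20), TBC1D1 (1.002), RABGAP1L (0.95), TBC1D4 (0.91), TBC1D15 (0.64) and TBC1D30 (0.54). TBC1D1 and TBC1D4 are the GAPs that insulin signaling controls in glucose transporter traffic. TBC1D9 had 30.8, 35.7, 57.5 and 43.6 CPM in control and 95.5, 90.8, 99.9 and 89.3 CPM in cytokine libraries A to D (limma adjusted p = 0.000503). The libraries did not overlap. The GAPs that fell were TBC1D24 (-0.88), SGSM1 (-0.69), TBC1D2 (-0.69) and TBC1D9B (-0.54).

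The 8 genes of RAB prenylation and membrane cycling had no call in limma, beside 27.0% of all genes. No unadjusted limma p was below 0.05 (6945 of all 16525 genes had one), and edgeR with TMM and DESeq2 called none. GDI2, which extracts RABs from membranes, had a log2 fold change of 0.01 (95% interval -0.44 to 0.45). The geranylgeranyl transferase subunits RABGGTA and RABGGTB were at -0.30 (95% interval -0.73 to 0.12) and -0.16 (-0.50 to 0.18), and the escort proteins CHM and CHML at -0.12 (-0.41 to 0.17) and -0.17 (-0.80 to 0.46). The values of CHM and RABGGTB turned above 0 on the recovered reads with edgeR and TMM (0.03 and 0.00). RABAC1, which binds prenylated RABs, was at 0.55 with an adjusted p of 0.275 in limma, and of 0.0034 with the pairs as a replicate block.

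Of 9 secretory effectors, 1 rose and 4 fell, beside 27.0% of all genes called. The 4 include RPH3A, which has no test, and the median was -0.02. SYTL3, a synaptotagmin-like protein that binds RAB27, had 0.641, 0.487, 0.518 and 0.802 CPM in control and 3.88, 2.71, 2.84 and 4.18 CPM in cytokine libraries A to D. Every cytokine library was far higher than every control library. It rose by 2.30 (SE 0.24, limma adjusted p = 5.55e-05), and 3 of its 4 control libraries were above 0.5 CPM. RPH3AL (Noc2), which binds RAB3 and RAB27 and is needed for normal insulin exocytosis, had 72.1, 57.4, 78.4 and 61.3 CPM in control and 32.2, 33.3, 35.1 and 33.7 CPM in cytokine libraries. No library overlapped, and it fell by 0.99 on the log2 scale (SE 0.12, limma adjusted p = 0.000174). Rabphilin (RPH3A), at 0.880 to 1.503 CPM in control and 0.141 to 0.511 CPM in cytokine libraries, had a difference of -1.71. It was above 0.5 CPM in 4 control and 1 cytokine library, so it was listed through the condition in which it was higher and its difference is given without a test. UNC13D (-0.77) and SYTL1 (-0.58) also fell. SYTL5 had a difference of 0.85. It was above 0.5 CPM in 3 cytokine libraries and in no control library, so its difference is given without a test.

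Of 31 endosomal and Golgi effectors, 2 rose and 3 fell (16.1%, beside 27.0% of all genes), with a median of -0.01. Optineurin (OPTN), a RAB8 partner and autophagy receptor, had 77.6, 92.9, 148 and 122 CPM in control and 257, 255, 428 and 360.2 CPM in cytokine libraries. The lowest cytokine library exceeded the highest control library. It rose by 1.57 (SE 0.23, limma adjusted p = 0.000482). MICALL1, an effector of recycling endosomes, rose by 0.87, and the RAB11 effector RAB11FIP3 (-0.72), APPL2 (-0.59) and MICALL2 (-0.53) fell. The 6 RAB-like genes measured, which the rule left out, had no call in limma, beside 27.0% of all genes. No unadjusted limma p was below 0.05 (6945 of all 16525 genes had one), and edgeR with TMM and DESeq2 called none.

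**Figure D5:**
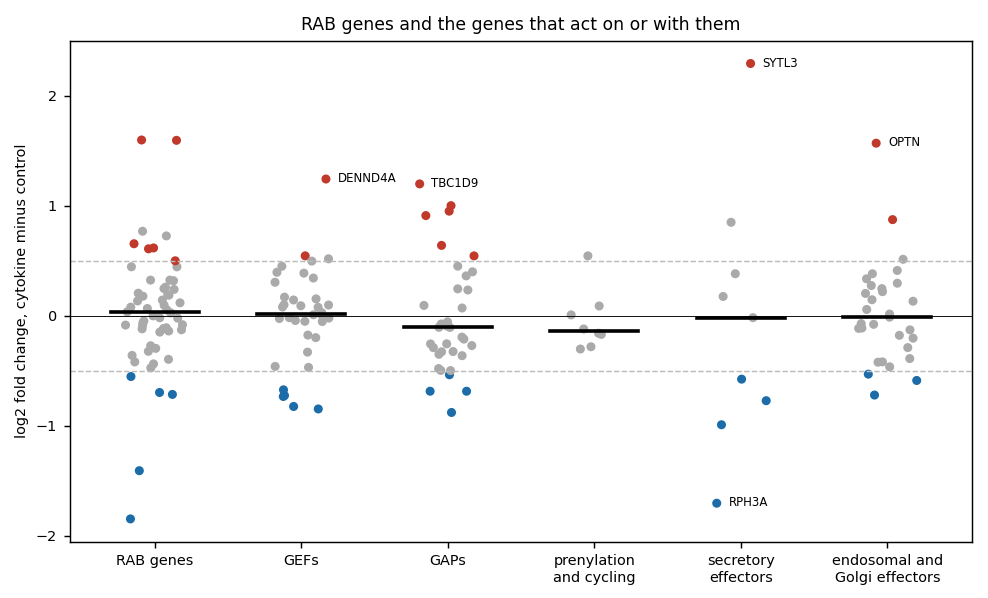
Log2 fold changes (y axis, cytokine minus control on log2(CPM + 0.1)) of the 56 RAB genes and of 5 lists of genes that act on or with them, each point being 1 gene, red called higher, blue called lower and gray not called, with black bars for the list medians and dashed lines at 0.5 in size. SYTL3 (2.30) and OPTN (1.57) are the highest points outside the RAB genes and RPH3A (-1.71), which was listed through its control libraries, the lowest, and the medians lie between -0.14 and 0.03.

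Several beta-cell markers moved beside the granule RABs. Of the 13 markers, 7 fell (G6PC2, MAFA, SLC30A8, PCSK2, ABCC8, PDX1 and NKX2-2) and 6 were not called, with a median of -0.52. Of all genes, 27.0% were called, and 17.5% of all genes were called lower. Not all markers went down, as 5 of the 13 had values above 0, the highest 0.93. The summed level of the 13 overlapped between conditions, and INS had a log2 fold change of -0.17 (adjusted p = 0.684). The exocrine marker CPA1 fell by 1.06 to 4.04 CPM, while KRT19 was at 0.01, and the summed level of these 2 was 88.2 to 167 CPM in control and 84.6 to 166 CPM in cytokine libraries. The part of any such shift in the RAB values was not tested.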

How the data were processed

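The study prepared stranded mRNA libraries on a DNBSEQ platform (100 bp paired-end reads). Per the labels and methods, the authors cleaned reads with SOAPnuke, aligned them to GRCh38 with TopHat 2.1.1 and counted them on Ensembl 107 genes with htseq-count 0.9.1. They deposited CPM, read counts divided by the library total (46767972 to 51145634 reads) and scaled, for genes that exceeded 0.5 CPM in 4 samples or more. In the 8 libraries used, 100% of values were whole multiples of 1 read (tolerance 0.01), so reads were recovered. Another 4 columns were not used here. For a count of 0 the limit is 3 reads, which covers counting error only.

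Log2(CPM + 0.1) values were fitted with limma 3.58.1 in R 4.3.3, with an intensity trend, and p-values were adjusted over the 16525 genes after Benjamini and Hochberg. Calls needed a log2 fold change over 0.5 in size and an FDR below 0.05. The study used edgeR's quasi-likelihood test, which needs counts. Alternatives were edgeR 4.0.16 on recovered reads, DESeq2 1.42.0 on the same reads, other scalings, pseudocounts of 0.5 and 1, a minimum mean of 1 CPM, other thresholds, a replicate block, each library left out and the sign within each pair, the last added after seeing the data. The script was tested on simulated data. The exact permutation test of a gene was 2-sided. TPM used exon lengths of GENCODE 29 (GRCh38), which also gave coordinates. A stretch was called shared when its 100 bases occur in a transcript of another gene. Python 3.11.15, pandas 2.3.3, numpy 2.4.6, scipy 1.17.1 and matplotlib 3.10.9 were used.

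The pairs come from the shared first part of column names. Deviations from group means correlated by 0.46, 0.50, 0.75 and 0.68 within pairs A to D, and the pairs were therefore treated as real. Control A also correlated with cytokine library B (0.45) and control B with cytokine library A (0.49), so the check does not tell A from B. The main limma fit and its p-values did not use the pairs. They entered only as a replicate block in alternatives and for the sign within each pair.

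The RAB genes, role lists and pathway lists were chosen with earlier results of these data known. Named in full were called genes without overlap between conditions, all granule RABs and the 3 RABs highest per length, and from each pathway list the 3 largest calls and GDI2 and the CHM and RABGGT genes. The values of 1 further gene of that rule are not reported here. SYTL5, RABAC1, DENND5B and genes called only under an alternative were named after their values were seen.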

Additional observations from a re-analysis of the deposited data

Results flagged for a closer look

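In 80 groups of 4 libraries (the named genes, each condition apart), 3 had 1 library whose gap to its nearest neighbor, divided by the group's range, exceeded Dixon's critical value. Chance flags about 1 in 20 such groups. RAB37 in control libraries had a ratio of 0.832, with control C at 14.9 CPM and the others between 11.9 and 12.4 CPM. RAB6B in control libraries had a ratio of 0.953, with control C at 62.9 CPM and the others between 48.6 and 49.3 CPM. RAB31 in cytokine libraries had a ratio of 0.877, with library C at 1.77 CPM and the others between 0.852 and 0.964 CPM.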

How the results depend on the processing

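RAB31, above the listing limit of 0.5 CPM only in cytokine libraries, has no test. Its calls are part of the counts below but are no support. RAB27A, RAB3D, RAB30, RAB26 and RAB37 kept their calls under 20 alternatives, the left-out libraries included. RAB2B lost its call under 8 of them, RAB25 under 6, RAB19 and RAB24 under 3 each and RAB23 under 2, and RAB32 gained one under 8, RAB7A under 7, RAB39B under 6, RAB4B under 5 and RAB6B under 4. With each library left out in turn, 8 to 12 RAB genes were called, 4 to 8 higher and 4 to 6 lower, and 23 to 28 pathway genes, 9 to 13 higher and 14 to 18 lower, beside 23.6% to 26.3% of all genes (8.32% to 10.3% higher, 14.5% to 17.7% lower). With a log2 fold change above 1, 4 RAB genes were called (2 higher, 2 lower) and 6 pathway genes (5 higher, 1 lower), beside 12.4% of all genes (5.47% and 6.93%). RAB31 and RPH3A, which have no test, are among these. At FDR below 0.05 alone, 43 of 120 pathway genes passed (18 higher, 25 lower), beside 30.8% of all genes (10.7% and 20.2%). The pathway genes called higher were 22 with TMM, 23 with median-of-ratios scaling, with edgeR and with DESeq2, and 25 with edgeR and the replicate block, and those called lower were 8 with TMM, median-of-ratios scaling and edgeR, beside 13.1% to 15.9% and 11.4% to 11.6% of all genes. DESeq2 and edgeR with TMM and the replicate block each called 10 RAB genes higher (14.3% and 15.9% of all genes). With the pairs as a replicate block in limma, RAB32, RAB4B, DENND5B, RABAC1 and SYTL5 were called as well, and no other call among the RAB and pathway genes changed. Among them SYTL5, above 0.5 CPM in no control library, has no test, so its call is no support. The cause of the differences between settings was not tested.

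Values near 0 changed sign. RAB3A was 0.072 with TMM, 0.078 with median-of-ratios scaling, 0.066 with edgeR, 0.072 with DESeq2 and 0.072 with edgeR and the replicate block. RAB3B was 0.16 with TMM, median-of-ratios scaling, DESeq2 and edgeR with the replicate block, 0.15 with edgeR, 0.000605 with CPM over listed genes, 0.069 within A and B and -0.11 to 0.12 with a library left out. RAB27B was 0.0028 with quantile normalization and 0.039 within A and B. With a library left out, RAB1B ranged from -0.080 to 0.19, GDI2 from -0.10 to 0.16 and CHML from -0.34 to 0.0028. GDI2 was -0.044 within C and D and CHML 0.040 within A and B. CHM was 0.036 with TMM, 0.042 with median-of-ratios scaling, 0.031 with edgeR, 0.037 with DESeq2 and 0.036 with edgeR and the replicate block. RABGGTB was 0.0031 with median-of-ratios scaling, 0.0026 with edgeR and 0.0092 with DESeq2.

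Depth limits the low genes, of which RAB31, RAB43, RAB40A, RAB27B and RAB4B had the fewest reads. A single cell line and 4 libraries per condition limit all calls.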
